A study of Rattus norvegicus with 12 samples.

Results

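The genes described here encode proteins that drive, brake or mark cell division. They are the D-type cyclins Ccnd1, Ccnd2 and Ccnd3 with their kinase Cdk4, the growth regulator Myc, the cyclin-dependent kinase (CDK) inhibitors Cdkn1a and Cdkn1b, and the DNA replication and mitosis genes Pcna, Top2a and Ccnb1. The 10 genes were chosen by symbol and not by their signals, and every probe set that the array annotation assigned to 1 of these symbols was taken. This gave 24 of the 8740 probe sets tested, with 5 for Ccnd1, 4 for Ccnd3, 3 for Top2a, 2 each for Ccnd2, Ccnb1, Pcna, Cdkn1a and Myc, and 1 each for Cdk4 and Cdkn1b. RNA came from mixed glial cell cultures of neonatal rat brain, which hold astrocytes, oligodendrocytes, their precursors and some microglia, and was hybridized to 12 Affymetrix RG-U34A arrays. In each of 3 experiments on different cultures, 1 culture received Th1 cytokines (g-CSF, TNF-a, interferon-g and IL-2), 1 received monocyte/macrophage (M/M) cytokines (TNF-a, IL-12p40, IL1b and IL1a), 1 received Th2 cytokines (porcine TGF-b1, G-CSF, IL-10 and IL-5) and 1 was a control with added medium only. Each cytokine was used at 10 ng/ml for 6 hours, and all 4 cultures were kept in the same defined, low-serum medium. These compositions are those of the sample labels, and the methods of the study also place IL-6 in the M/M and IL-4 in the Th2 mixture. Because each culture is a mixture of cell types, a lower signal from fewer cells of a type cannot be told apart from a lower signal per cell.

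The arrays of experiment 3 go against their labels, and this touches each value below. Over the 200 probe sets that differed most between mixtures in experiments 1 and 2, the array labelled Th1 in experiment 3 correlated with Th2 cytokines of the other experiments at r = 0.74 and with Th1 at -0.58. The array labelled M/M correlated with Th1 at r = 0.75 and with M/M at -0.19, and the array labelled Th2 correlated with M/M at r = 0.61 and with Th2 at -0.24. These correlations are across probe sets, which are not independent replicates. The same was seen in genes picked after their values were seen. Cd74, the invariant chain that interferon-g induces, had signals of 989, 344 and 3.70 on the Th1 arrays of experiments 1, 2 and 3, and of 49.0, 10.5 and 1379.7 on the M/M arrays. On the Th2 arrays the Cd74 signal was 28.0, 9.49 and 11, and on the control arrays it was 41.0, 5.11 and 4.10. No array was moved to another group. The labels were kept, the third value of each group is that of the array so labelled in experiment 3, and differences for at least 1 probe set of each gene are also given from experiments 1 and 2 alone.

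Array brightness differed as well. The median signal of experiments 1, 2 and 3 was 57, 61 and 24.5 on the Th1 arrays, 60.9, 57.9 and 42.2 on the M/M arrays, 58.4, 56 and 29 on the Th2 arrays, and 59.1, 38.4 and 26.9 on the control arrays. The control of experiment 2 was thus dimmer than its 3 treated arrays, and the array labelled M/M was the brightest of experiment 3. For this reason differences from control are given as deposited and, for at least 1 probe set of each gene, also after each array was centred, that is, after the median log2 signal of the array was subtracted. Values are uncentred where nothing else is said. Of the markers for the cell types of the cultures, oligodendrocyte genes such as Mbp (lowest array 1830, highest 6880) and the astrocyte genes Glul (1250 to 3870), Slc1a3 (652 to 2030) and S100b (385 to 1540) were bright on every array, as was the microglial gene Aif1 (238 to 932). Other astrocyte genes were dimmer, Aqp4 at 8.92 to 195, Gja1 at 18.3 to 162 and Slc1a2 at 10.6 to 37.2, and of the microglial genes Itgam (2.81 to 25.2) and Csf1r (4.80 to 28.1) were dimmest. The 5 neuronal genes lay between 0.90 (Syt1) and 114 (Snap25) and the 3 endothelial genes between 2.20 (Kdr) and 68.0 (Vwf). Fibroblast genes spanned a wide range, with Col1a1, for a collagen chain, at 217 to 1680 and Pdgfrb at 9 to 58.2. None of the markers passed the test in a comparison of a mixture with control.

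In the cell cycle, mitogens raise the D-type cyclins, which activate CDK4 and its relative CDK6. These kinases phosphorylate the retinoblastoma family of pocket proteins and so release E2F transcription factors, which switch on genes of DNA replication. CDK inhibitors of the Cip/Kip family, to which Cdkn1a (p21) and Cdkn1b (p27) belong, oppose this step, while cyclin B drives entry into mitosis. In cultured glia, oligodendrocyte precursors, astrocytes and microglia can divide, whereas mature oligodendrocytes have left the cycle.

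No member probe set passed the test in any comparison (limma with experiment as a block, Benjamini-Hochberg adjusted p under 0.05 over all 8740 probe sets). Over all probe sets the same test called 0 of 8740 higher with Th1 cytokines, 0.263% higher with M/M cytokines and 0.0114% higher with Th2 cytokines, and none lower. At an unadjusted p under 0.05, 5 of the 24 member probe sets were higher with M/M cytokines, against a background of 15.4%. These were 2 of Ccnd1, 1 of Cdkn1b and both of Myc. With Th1 and Th2 cytokines no member reached an unadjusted p under 0.05 in either direction before centring, against a background of 4.75% higher and 0.812% lower for Th1 and of 6.06% higher and 0.686% lower for Th2 cytokines. After centring, 3 of 24 were lower with Th2 cytokines at that p (1 each of Ccnd1, Ccnd2 and Ccnd3, background 3.51%) and 0 were higher (background 4.29%). In the same setting 1 of Ccnd2 was lower with Th1 cytokines (background 3.17%) and 0 were higher (background 3.54%), while with M/M cytokines 1 of Ccnd1 was higher (background 5.33%) and 1 of Ccnd2 lower (background 8.02%). The number of arrays, 3 a group, limits the precision of each value.

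**Figure D1:**
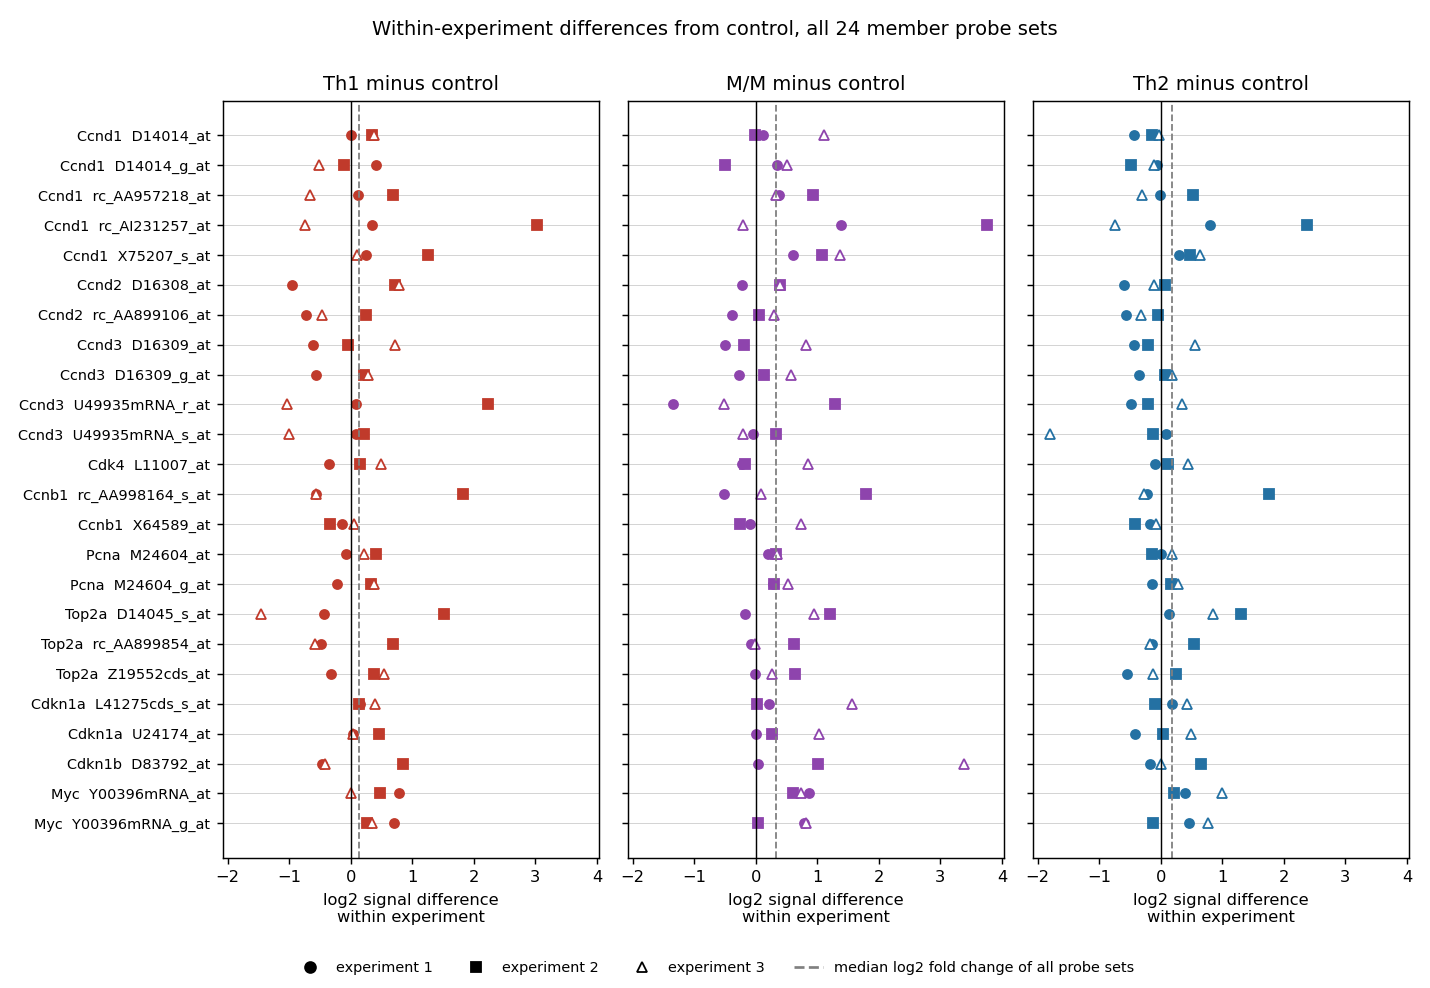
Difference of each treated array from the control of its own experiment (log2 signal, horizontal axis) for the 24 member probe sets (rows), with 1 panel per mixture, and filled circles, filled squares and open triangles for experiments 1, 2 and 3. The dashed line is the median log2 fold change of all probe sets (Th1 0.14, M/M 0.33, Th2 0.19), and most members lie around it with their 3 experiments apart from each other.

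Among the D-type cyclins, Ccnd1, for cyclin D1, had the highest M/M differences. With probe set X75207_s_at its signal was 262, 474 and 95.3 with Th1 cytokines, 336, 418 and 228 with M/M cytokines, 271, 276 and 138 with Th2 cytokines, and 221, 199 and 88.7 in control cultures (experiments 1, 2 and 3). Every M/M array was above every control array. The M/M and control means were 327 ± 95.2 and 169.7 ± 71.0 (SD, n = 3), and the log2 fold change stood at 1.01 with an SE of 0.28 (adjusted p = 0.142). Of all probe sets, 7.48% had M/M signals that did not overlap with control and were higher. After centring, the Ccnd1 difference was 0.58 (adjusted p = 0.25), with 0.56, 0.48 and 0.71 in the 3 experiments, and the groups still did not overlap (3.18% of all probe sets). From experiments 1 and 2 alone it was 0.84 uncentred (adjusted p = 0.368) and 0.52 centred (adjusted p = 0.207). With Th1 and Th2 cytokines the same probe set was higher than control in 3 of 3 experiments, at log2 fold changes of 0.53 (adjusted p = 0.857) and 0.47 (adjusted p = 0.743). Of all probe sets, 14% and 25% were higher in 3 of 3 experiments with these mixtures. After centring, the Th1 value was 0.37, higher in 3 of 3 experiments, and the Th2 value was 0.25, higher in 2 of 3.

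The other Ccnd1 probe sets did not give 1 picture. With rc_AI231257_at the signal was 98.6, 113 and 29.5 with M/M cytokines and 37.9, 8.39 and 34.1 in control cultures (log2 fold change 1.64, SE 0.60, adjusted p = 0.243). The difference was 3.75 in experiment 2, where the control signal was 8.39, and -0.21 in experiment 3. From experiments 1 and 2 alone it was 2.56 (adjusted p = 0.284), and 2.25 after centring as well, with the lowest adjusted p of any member in any setting, 0.0614. With Th1 cytokines this probe set had signals of 48.1, 68.0 and 20.4, and with Th2 cytokines of 66.2, 43.3 and 20.4, so that both mixtures were above control in experiments 1 and 2 and below it in experiment 3. In rc_AA957218_at, M/M signals of 122, 129 and 73.5 were above control signals of 94.2, 67.5 and 58.6 in 3 of 3 experiments (log2 fold change 0.54, adjusted p = 0.366, and 0.12 after centring).

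The pair of Ccnd1 probe sets designed on the same sequence stayed nearer to control. In D14014_at the signal was 976, 1121 and 714 with Th1, 1052, 879 and 1192 with M/M and 722, 796 and 541 with Th2 cytokines, and 974, 886 and 550.5 in control cultures. Th2 arrays were below control in 3 of 3 experiments (log2 fold change -0.20, adjusted p = 0.839), and M/M arrays exceeded control clearly only in experiment 3, by 1.11. After centring the Th2 difference was -0.42 (unadjusted p = 0.043, adjusted p = 0.628), and the Th1 and M/M values were 0.08 and -0.02. From experiments 1 and 2 alone the centred Th2 value was -0.56 (adjusted p = 0.447). In D14014_g_at the log2 fold changes were -0.07, 0.12 and -0.22 for Th1, M/M and Th2 cytokines, with signals between 685 and 1988 over the 12 arrays. Th2 cytokines were below control in 3 of 3 experiments here too, by 0.06, 0.48 and 0.11 on the log2 scale, and after centring the difference was -0.43 (adjusted p = 0.663).

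**Figure D2:**
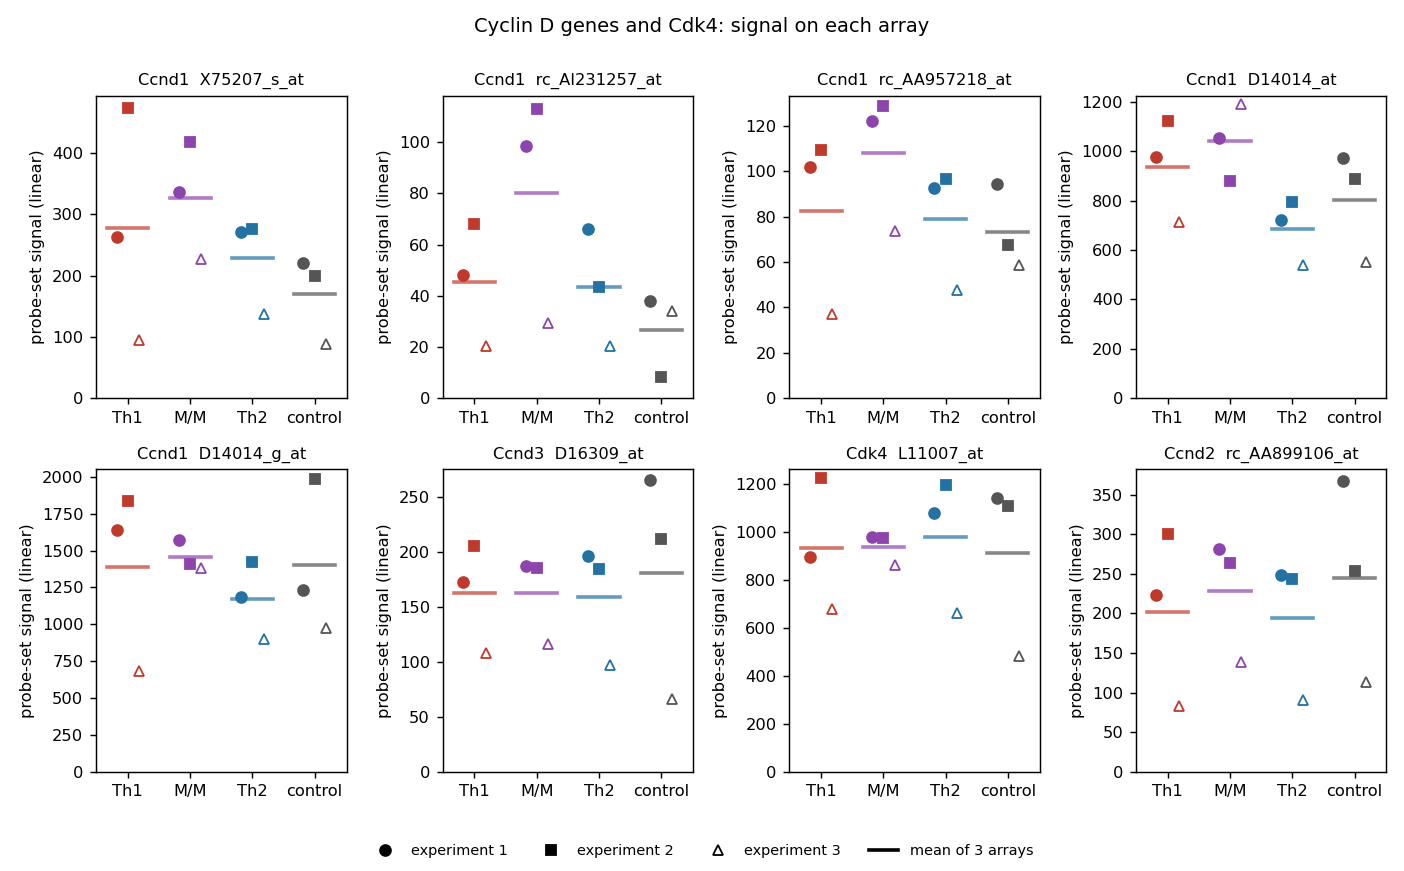
Signals of all Ccnd1 probe sets, Ccnd2 rc_AA899106_at, Ccnd3 D16309_at and Cdk4 on each of the 12 arrays (linear scale, vertical axis from 0). Groups are Th1, M/M, Th2 and control from left to right. The other Ccnd2 and Ccnd3 probe sets are not drawn. Symbols mark the experiment and horizontal lines the mean of 3 arrays, and for Ccnd1 X75207_s_at the M/M arrays (228 to 418) lie above the control arrays (88.7 to 221).

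Ccnd2, for cyclin D2, was lower once brightness was removed, without passing the test. This held for each mixture in 1 of its 2 probe sets, and for M/M and Th2 cytokines in the other. With rc_AA899106_at the signal was 224, 300.3 and 82.4 with Th1, 281, 264 and 139 with M/M and 249, 244 and 90.5 with Th2 cytokines, and 368, 253 and 113 in control cultures. After centring this probe set was below control in 3 of 3 experiments with each mixture, at -0.47 for Th1 (adjusted p = 0.66), -0.44 for M/M (adjusted p = 0.269) and -0.53 for Th2 cytokines (adjusted p = 0.628), comparisons that share their control arrays. Of all probe sets, 10.9%, 23.3% and 15.7% were lower in 3 of 3 experiments after centring. Uncentred, the differences were -0.31, -0.01 and -0.31, and from experiments 1 and 2 alone the centred ones were -0.54, -0.48 and -0.57. With D16308_at, the second Ccnd2 probe set, centred differences were 0.02, -0.24 and -0.42 for the 3 mixtures. It was below control in 3 of 3 experiments with M/M (-0.27, -0.20 and -0.26) and with Th2 cytokines (-0.58, -0.48 and -0.22). Its centred Th1 difference was -0.91 in experiment 1, 0.05 in experiment 2 and 0.92 on the array so labelled in experiment 3.

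In 2 of its 4 probe sets Ccnd3, for cyclin D3, shifted by experiment together with Cdk4, the kinase it binds. Ccnd3 with D16309_at had signals of 173, 205 and 108 with Th1, 187, 185 and 116 with M/M and 196, 184 and 96.8 with Th2 cytokines, and of 265, 211 and 65.9 in control cultures. Cdk4 had signals of 896, 1226 and 679 with Th1, 979, 976 and 863 with M/M and 1078, 1197 and 661 with Th2 cytokines, and of 1144, 1108 and 483 in control cultures. In D16309_at and in Cdk4 the treated arrays of experiment 1 were all below their control and those of experiment 3 all above it. The 3 differences within an experiment share 1 control array, so they are not independent. The log2 fold changes were 0.02, 0.04 and -0.03 for Ccnd3 D16309_at and 0.10, 0.14 and 0.16 for Cdk4 (Th1, M/M and Th2 cytokines), and the lowest adjusted p of these was 0.761. Centring turned the direction of most of them, to -0.14, -0.39 and -0.24 for D16309_at and to -0.07, -0.29 and -0.05 for Cdk4.

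Experiments 1 and 2 alone gave lower values for both genes. Uncentred, they gave -0.33, -0.35 and -0.32 for D16309_at and -0.10, -0.20 and 0.01 for Cdk4 (Th1, M/M and Th2 cytokines). After centring as well, D16309_at was at -0.64, -0.66 and -0.58 (adjusted p = 0.158, 0.098 and 0.447) and Cdk4 at -0.41, -0.52 and -0.25 (adjusted p = 0.383, 0.164 and 0.509). The direction of both genes with M/M cytokines therefore turned without experiment 3, and no value passed the test.

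The other Ccnd3 probe sets were not alike. D16309_g_at, with signals between 165 and 338, was below control in experiment 1 and above it in experiment 3 with each mixture, as D16309_at was. U49935mRNA_s_at had signals of 89.7, 97.9 and 17.0 with Th1, 81.6, 106 and 29.6 with M/M and 89.5, 77.7 and 9.80 with Th2 cytokines, and of 84.3, 84.4 and 34.1 in control cultures. Its treated arrays were thus all below control in experiment 3, and its Th2 log2 fold change was -0.61, or -0.82 after centring (unadjusted p = 0.027, adjusted p = 0.628) and -0.28 after centring from experiments 1 and 2 alone. U49935mRNA_r_at was at or below 9.60 on every array.

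The promoters of Ccnd3 and Cdk4, a D-type cyclin and its kinase, are shown as the 250 bases before the start site. They are given on the coding strand in RefSeq sequence of build GRCr8. RefSeq promoters were matched for 7 of the 10 genes, all but Ccnd1, Ccnd2 and Myc. Ccnd3 lies on the minus strand at chr9:20897876-20898125 and Cdk4 on the plus strand at chr7:64771203-64771452. Capitals mark matches, on either strand, to CCAAT, to TTTGAA (the cell cycle homology element), to TTTCGCGC and TTTGGCGC (forms of the E2F site) and to CACGTG (the E-box that MYC with MAX can bind).
Ccnd3: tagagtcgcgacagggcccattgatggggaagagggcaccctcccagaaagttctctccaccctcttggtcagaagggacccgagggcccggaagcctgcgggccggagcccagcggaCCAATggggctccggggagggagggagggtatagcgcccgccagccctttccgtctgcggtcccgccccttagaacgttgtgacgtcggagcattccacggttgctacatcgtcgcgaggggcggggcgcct
Cdk4: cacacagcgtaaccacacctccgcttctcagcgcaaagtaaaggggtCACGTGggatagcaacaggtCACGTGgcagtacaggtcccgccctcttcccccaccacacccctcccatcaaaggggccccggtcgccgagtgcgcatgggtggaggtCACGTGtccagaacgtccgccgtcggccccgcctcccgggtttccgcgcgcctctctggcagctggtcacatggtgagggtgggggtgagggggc
Ccnd3 held 1 CCAAT match, and Cdk4 held 3 CACGTG matches, the nearest at -95 to -90 from the start site. Among 33469 rat promoters of the same length, 34% held CCAAT and 5.59% held CACGTG. No match to either E2F form was found in the 7 promoters, and 0.248% and 0.412% of all promoters held TTTCGCGC and TTTGGCGC. A match describes these letters only, and binding was not measured.

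Myc encodes a transcription factor of growth and proliferation whose mRNA is short-lived and follows mitogens and cytokines within hours. With Y00396mRNA_at its signal was 182, 134 and 108 with Th1, 191, 147 and 178 with M/M and 139, 112 and 212 with Th2 cytokines, and 105, 96.3 and 107 in control cultures. All 9 treated arrays were above all 3 control arrays, although the array labelled Th1 in experiment 3 was above by a log2 difference of only 0.01. This was the only member probe set whose signals did not overlap with control for each mixture. For each mixture taken singly, 1.54%, 7.48% and 2.77% of all probe sets were higher without overlap (Th1, M/M and Th2 cytokines). The share of all probe sets that did so for the 3 mixtures together was not counted. Mean signals were 141 ± 37.6 (Th1), 172 ± 22.7 (M/M) and 154 ± 51.6 (Th2 cytokines), and 103 ± 5.70 in control cultures (SD, n = 3). The log2 fold change was 0.42 for Th1 (adjusted p = 0.857), 0.74 for M/M (adjusted p = 0.245) and 0.53 for Th2 cytokines (adjusted p = 0.717). The 3 comparisons share the same control arrays.

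Part of the Myc difference went with array brightness. After centring it was 0.26, 0.31 and 0.32 for Th1, M/M and Th2 cytokines, the groups overlapped, and the experiment 2 differences were -0.19, 0.02 and -0.33. From experiments 1 and 2 alone it was 0.63 for Th1 (adjusted p = 0.41), 0.74 for M/M (adjusted p = 0.295) and 0.31 for Th2 cytokines (adjusted p = 0.611) uncentred, and 0.32, 0.42 and 0.04 centred. The second probe set, Y00396mRNA_g_at, had signals of 512, 395 and 152 with Th1, 542, 339 and 209.5 with M/M and 432, 303 and 204 with Th2 cytokines, and of 314, 329 and 119 in control cultures. Its groups overlapped, and its log2 fold changes were 0.44, 0.55 and 0.37 (adjusted p = 0.857, 0.28 and 0.743). In experiment 2 its differences were 0.26, 0.04 and -0.12 in the same order, so M/M and Th2 arrays were near control there and further above it in experiments 1 and 3.

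**Figure D3:**
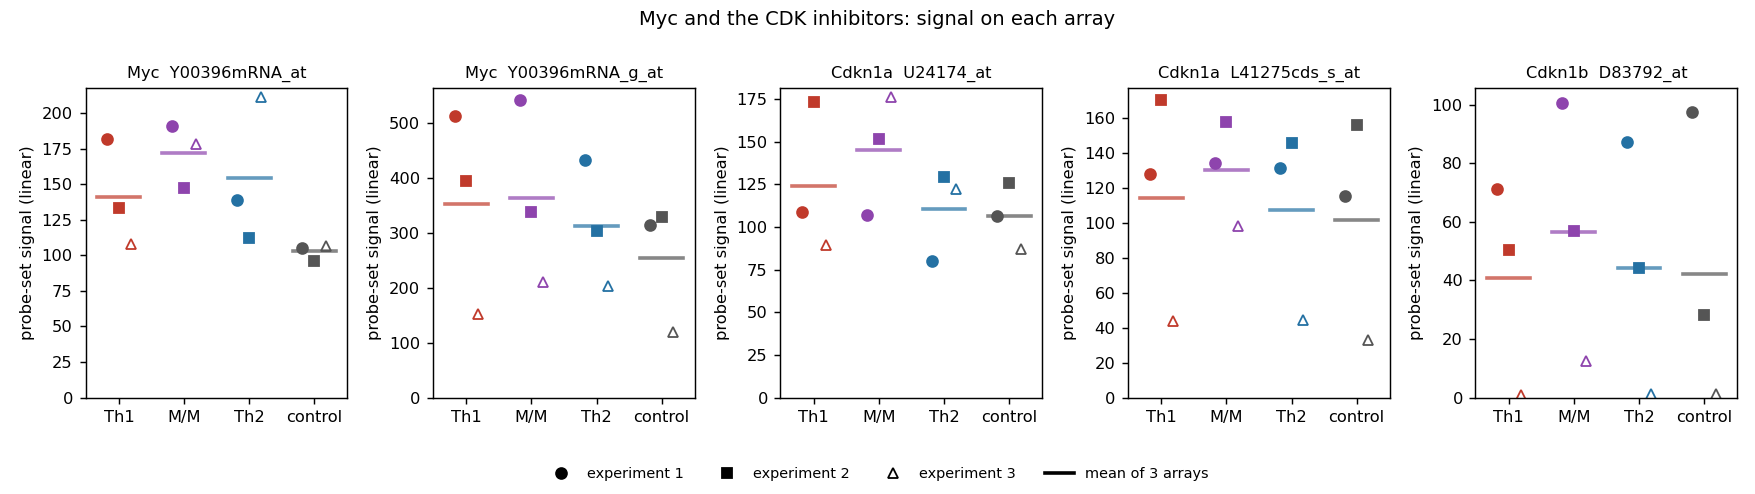
Signals of the Myc, Cdkn1a and Cdkn1b probe sets (linear scale, vertical axis from 0) on each array by group, with Th1, M/M, Th2 and control from left to right, symbols for the experiment and lines for the mean of 3 arrays. The control arrays of Myc Y00396mRNA_at (96.3 to 107) lie below all 9 treated arrays (108 to 212), and the CDK inhibitors overlap in all groups.

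The CDK inhibitors differed from control mainly on the array labelled M/M in experiment 3. Cdkn1a, which p53 induces and which arrests cells before DNA replication, had L41275cds_s_at signals of 134, 158 and 98.1 with M/M cytokines and of 115, 156 and 33.1 in control cultures. The log2 fold change was 0.60 (adjusted p = 0.351), made up of 0.22, 0.02 and 1.57. From experiments 1 and 2 alone it was 0.12, and -0.20 after centring. The other Cdkn1a probe set, U24174_at, gave 0.01, 0.26 and 1.02 in the 3 experiments (0.43, adjusted p = 0.454). With Th1 cytokines Cdkn1a was higher in 3 of 3 experiments in both probe sets, by 0.22 (adjusted p = 0.919) and 0.18 (adjusted p = 0.928), and with Th2 cytokines the values were 0.17 and 0.04. Of all probe sets, 14% were higher with Th1 cytokines in 3 of 3 experiments. After centring, the Th1 values of Cdkn1a were 0.06 and 0.02, and both probe sets were higher in 2 of 3 experiments.

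Cdkn1b, which holds quiescent cells and differentiating oligodendrocyte precursors out of the cycle, was dim and uneven. Its signal was 71.2, 50.5 and 0.90 with Th1, 101, 56.9 and 12.5 with M/M and 87.1, 44.4 and 1.2 with Th2 cytokines, and 97.7, 28.2 and 1.2 in control cultures. The experiment 3 arrays held signals of 12.5 or less. The M/M log2 fold change of 1.48 (SE 0.64, adjusted p = 0.288) was made up of 0.04, 1.01 and 3.38, and without experiment 3 it was 0.53 (adjusted p = 0.532). The Th1 and Th2 values were -0.01 and 0.16. After centring the 3 mixtures stood at -0.17, 1.05 and -0.05.

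Pcna, the sliding clamp that tethers DNA polymerase during replication, was higher with M/M cytokines in 3 of 3 experiments in both of its probe sets. With M24604_at the signal was 1318, 1197 and 1105 with Th1, 1599, 1131 and 1198 with M/M and 1391, 816 and 1077 with Th2 cytokines, and 1394, 900.3 and 947 in control cultures. With M24604_g_at it was 802, 875 and 691 with Th1, 1134, 858 and 772 with M/M and 848, 777 and 647 with Th2 cytokines, and 935, 694 and 533 in control cultures. Its M/M log2 fold change was 0.29 with the first (adjusted p = 0.41) and 0.37 with the second probe set (adjusted p = 0.324), near the median of 0.33 over all probe sets. After centring the values were -0.14 and -0.06, and from experiments 1 and 2 alone the centred ones were -0.05 and -0.03.

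Top2a, the topoisomerase that untangles chromosomes and is made mostly in late S phase and G2, overlapped between all groups before centring. In rc_AA899854_at the signal was 311, 519.8 and 227 with Th1, 414, 496 and 335 with M/M and 392, 470.5 and 300.3 with Th2 cytokines, and 435, 323 and 339 in control cultures. The treated arrays were above control in experiment 2 and below or level with it in experiments 1 and 3. Z19552cds_at gave log2 fold changes of 0.20, 0.30 and -0.14 for Th1, M/M and Th2 cytokines, or 0.04, -0.13 and -0.36 after centring and -0.28, 0.00 and -0.41 after centring from experiments 1 and 2 alone. The dimmest Top2a probe set, D14045_s_at, had signals of 29.8, 41.1 and 15.3 with Th2 cytokines and of 27.2, 16.6 and 8.50 in control cultures (log2 fold change 0.76, adjusted p = 0.763). After centring, its Th2 arrays did not overlap with control (0.15, 0.77 and 0.74 in the 3 experiments, adjusted p = 0.734, 2.39% of all probe sets), but the other Top2a probe sets were lower in 3 of 3 experiments (-0.14 and -0.36). The probe sets of Top2a therefore disagreed in direction for Th2 cytokines.

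In Ccnb1, for cyclin B1, the probe sets disagreed mainly in experiment 2. With X64589_at the signal was 258, 288 and 168 with Th1, 266, 305 and 271 with M/M and 252, 272 and 155 with Th2 cytokines, and 285, 365 and 162 in control cultures. Th2 arrays were below control in 3 of 3 experiments (log2 fold change -0.22, adjusted p = 0.828). After centring the 3 mixtures stood at -0.31, -0.30 and -0.44, and from experiments 1 and 2 alone at -0.55, -0.50 and -0.57 (centred). With rc_AA998164_s_at the signal lay between 20.3 and 72.2 over the 12 arrays, and the lowest value was the control of experiment 2. Its differences in that experiment were 1.83, 1.79 and 1.76 for Th1, M/M and Th2 cytokines, whereas X64589_at gave -0.34, -0.26 and -0.42 there. In experiments 1 and 3 both were below control with Th2 cytokines, rc_AA998164_s_at by -0.22 and -0.28 and X64589_at by -0.18 and -0.07. With Th1 cytokines they gave -0.57 and -0.57, and -0.15 and 0.05, and with M/M cytokines -0.52 and 0.08, and -0.10 and 0.74.

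**Figure D4:**
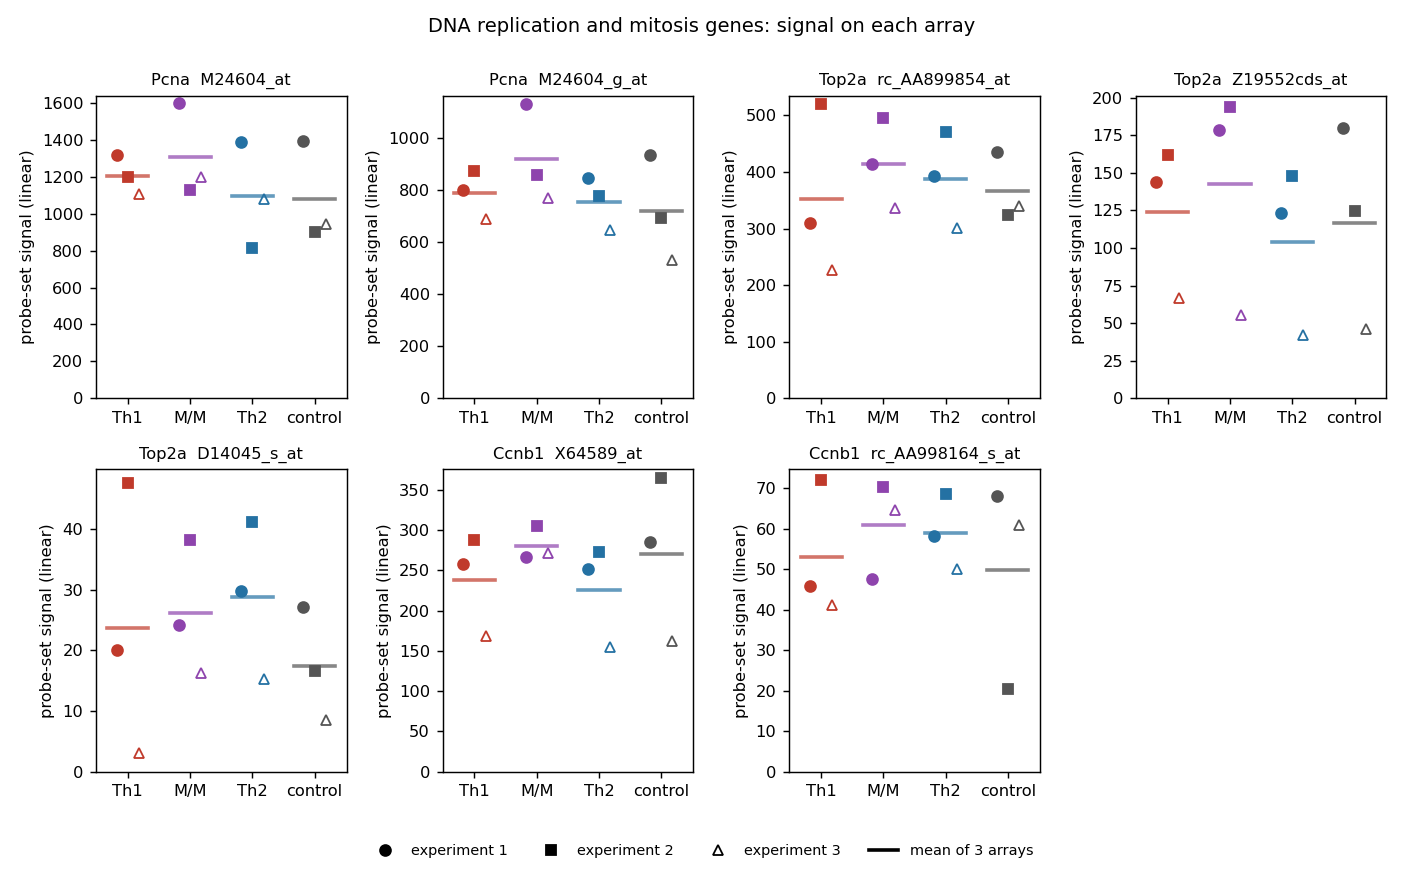
Signals of the Pcna, Top2a and Ccnb1 probe sets (linear scale, vertical axis from 0) on each array by group, with Th1, M/M, Th2 and control from left to right, symbols for the experiment and lines for the mean of 3 arrays. All groups overlap in each panel, and probe sets of 1 gene place the experiment 2 control (square) differently, high in Ccnb1 X64589_at (365) and low in rc_AA998164_s_at (20.3).

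The promoters of the 2 late cell cycle genes are shown for the elements that such genes are known to carry, with capitals as above. Ccnb1 lies on the minus strand at chr2:33655226-33655475 and Top2a on the minus strand at chr10:84473094-84473343 (GRCr8, RefSeq).
Ccnb1: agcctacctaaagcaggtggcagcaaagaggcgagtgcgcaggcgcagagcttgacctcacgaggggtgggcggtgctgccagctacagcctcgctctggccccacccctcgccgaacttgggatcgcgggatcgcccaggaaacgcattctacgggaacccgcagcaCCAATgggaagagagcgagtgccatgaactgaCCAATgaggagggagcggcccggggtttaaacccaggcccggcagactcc
Top2a: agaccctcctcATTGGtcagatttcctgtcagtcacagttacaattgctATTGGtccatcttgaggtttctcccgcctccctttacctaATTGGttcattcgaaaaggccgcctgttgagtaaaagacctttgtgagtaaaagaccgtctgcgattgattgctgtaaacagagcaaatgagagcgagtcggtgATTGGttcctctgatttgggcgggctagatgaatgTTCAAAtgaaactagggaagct
Ccnb1 held 2 CCAAT matches, both on the coding strand. Top2a held 4 CCAAT matches, all on the opposite strand and so printed as ATTGG, and 1 TTTGAA match on the opposite strand at -22 to -17, printed as TTCAAA. Of all promoters, 16.2% held TTTGAA. Of the other members, Cdkn1b held 2 CCAAT matches and Pcna held 1, while Cdkn1a held none of these motifs.

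As a group, the members lay near all probe sets with Th1 and M/M cytokines and below them with Th2 cytokines. Uncentred, 16 of 24 member probe sets were above 0 with Th1 cytokines (65.4% of all probe sets), 22 with M/M cytokines (78.1%) and 14 with Th2 cytokines (69.3%). The member median of the log2 fold changes lay at 0.17, 0.34 and 0.05 for Th1, M/M and Th2 cytokines, and that of all probe sets at 0.14, 0.33 and 0.19. Higher than control in 3 of 3 experiments were 6, 9 and 3 of the 24, against 14%, 32% and 25% of all probe sets. After centring, 13, 10 and 6 of 24 were above 0, against 47.4%, 41% and 47.4% of all. The centred medians were 0.01, -0.09 and -0.16, against -0.02, -0.10 and -0.03 over all probe sets. After centring, the Th1 and M/M shares of the members thus lay near those of all probe sets, and the Th2 share was below.

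With Th2 cytokines the member median depended on single control arrays, at 0.21 without the control of experiment 1 and -0.08 without that of experiment 2. The median over all probe sets is not given for these omissions. By experiment, the uncentred member medians were -0.15, 0.07 and 0.09, against -0.02, 0.40 and 0.18 over all probe sets. Uncentred, 4 of 24 were below control in 3 of 3 experiments (background 6.46%), namely 2 of Ccnd1, 1 of Ccnd2 and 1 of Ccnb1, and after centring 8 of 24 were (background 15.7%), namely 3 of Ccnd1, 2 each of Ccnd2 and Top2a and 1 of Ccnb1. From experiments 1 and 2 alone, 14 of 24 were lower in both experiments after centring (background 33.3%), with a median of -0.27, against -0.07 over all probe sets. The probe sets share arrays and genes, so these counts carry no test, and none of the single differences passed.

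**Figure D5:**
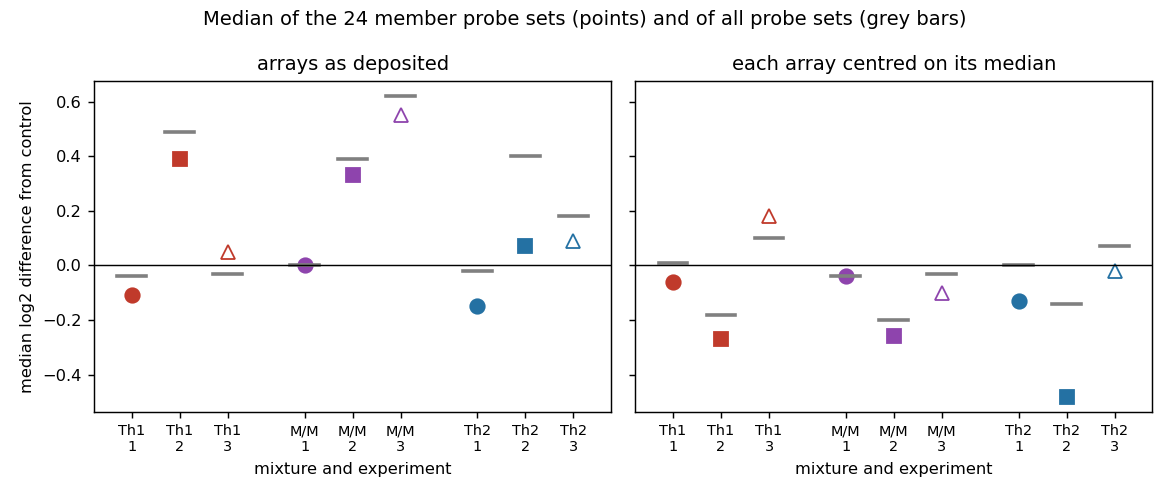
Median log2 difference from control in each experiment, for the 24 member probe sets and for all probe sets, as deposited and after centring of each array (vertical axis, log2), with Th1, M/M and Th2 from left to right. The uncentred medians of the members lie near those of all probe sets for Th1 and M/M, which reach 0.62 for the array labelled M/M in experiment 3, and lie below them for Th2 (0.07, against 0.40, in experiment 2), and the centred medians lie between -0.48 and 0.18.

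The mixtures were also set against each other. No member passed the test in these 3 comparisons, and none of all 8740 probe sets did (0%). At an unadjusted p under 0.05 limma took 1 member lower with Th1 than with M/M cytokines (Cdkn1b, background 2.65%), 1 higher with M/M than with Th2 cytokines (Ccnd1, background 3.18%) and 0 between Th1 and Th2 cytokines (background 0.606% higher and 1.25% lower). M/M cytokines had higher member signals than Th2 cytokines in most probe sets. Of the 24 probe sets, 16 were higher with M/M than with Th2 cytokines in 3 of 3 experiments, against 24.1% of all probe sets, and the median log2 fold change was 0.32, against 0.13 over all. After centring 6 of 24 were higher in 3 of 3 experiments (background 11.8%) and 4 were lower (background 25%), with a median of 0.10, against -0.08 over all. In experiments 1 and 2 alone, 17 were higher in both (29.9% of all) and 16 were after centring (24.8% of all), with medians of 0.26 and 0.21, against -0.02 and -0.07. Counted by the brightest probe set of each gene, 8 of 10 genes were higher in both experiments, all but Ccnd1 and Cdk4. The differences in experiments 1 and 2 were small for Ccnd3 (0.09 and 0.06) and Top2a (0.08 and 0.07) and larger for Cdkn1a (0.43 and 0.23). Ccnd1, by D14014_g_at, was at 0.41 and -0.01, and other probe sets of this gene follow below. The probe sets share arrays and several share a gene, so these counts carry no test.

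The M/M difference over Th2 cytokines varied in size between the members. It was largest for Cdkn1b, at 1.32 (adjusted p = 0.998), with 3.38 between the arrays so labelled in experiment 3 and 0.28 from experiments 1 and 2 alone, and next largest for Ccnd1 rc_AI231257_at, at 0.83 (adjusted p = 0.998). For Ccnd1 D14014_at it was 0.54, 0.14 and 1.14 in the 3 experiments (log2 fold change 0.61, SE 0.22, adjusted p = 0.998), and this was the member whose M/M and Th2 arrays did not overlap before centring (background 3.83%). For Ccnd1 X75207_s_at it was 0.31, 0.60 and 0.73, and for Pcna M24604_at 0.20, 0.47 and 0.15. For Myc Y00396mRNA_at it was 0.46 and 0.39 in experiments 1 and 2 and -0.25 between the arrays so labelled in experiment 3. Cdk4 went the other way in experiments 1 and 2, at -0.14 and -0.30, and was at 0.38 in experiment 3. For Th1 over M/M cytokines the member median was -0.24 (-0.21 over all), and for Th1 over Th2 cytokines 0.06 (-0.05 over all).

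In other cell cycle genes the M/M over Th2 count lay near the background. Of 51 further genes on the array, each by its brightest probe set, 14 were higher with M/M than with Th2 cytokines in both experiments 1 and 2, against the background of 29.9%, and the median was -0.06. Against control none of them passed the test with any mixture. With Th2 cytokines 25 of the 51 were above control in both experiments 1 and 2 (37.3% of all probe sets). Their median was 0.27, against 0.19 over all. After centring 16 were above control in both (25.1% of all), with a median of 0.01, against -0.07 over all. The members lay below all probe sets with Th2 cytokines, and these 51 genes as a set did not. The 7 cyclins and CDKs among them did in experiments 1 and 2, at -0.05, against 0.19 over all. After centring they were at -0.32, against -0.07. With all 3 experiments their uncentred median was 0.21, against 0.19. Members were counted by all of their probe sets and the 51 genes by the brightest, so the 2 counts are not alike. Of 21 further cyclins and CDKs listed, 7 were measured, with medians of 0.13, 0.33 and 0.21 for Th1, M/M and Th2 cytokines. The 5 measured CDK inhibitors, pocket proteins and p53 regulators (11 listed) had medians of 0.28, 0.45 and 0.42, and the 19 measured replication genes (39 listed) had -0.03, 0.18 and 0.09. The 10 measured mitosis genes (31 listed) had medians of 0.11, 0.32 and 0.30, and the 10 of the Myc network and E2F (20 listed) had 0.08, 0.47 and 0.21. Medians over experiments 1 and 2 alone were 0.20, 0.16, 0.14, 0.34 and 0.17 with M/M cytokines for the 5 lists in this order, against 0.18 over all probe sets. With Th2 cytokines they were -0.05, 0.27, 0.23, 0.52 and 0.19, against 0.19 over all.

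Of these genes, Rbl2, for the p130 pocket protein that keeps E2F genes silent in resting cells, was below control in 3 of 3 experiments with each mixture. Its signal was 231, 218 and 94.5 with Th1, 195, 189 and 88.1 with M/M and 223, 191 and 104 with Th2 cytokines, and 338, 237 and 154 in control cultures. Its log2 difference from control was -0.46 for Th1 (adjusted p = 0.857), -0.64 for M/M (adjusted p = 0.208) and -0.50 for Th2 cytokines (adjusted p = 0.717), and after centring it was -0.62, -1.07 and -0.71. Of all probe sets, 5.72%, 3.66% and 6.46% were lower in 3 of 3 experiments. Mcm5, a subunit of the replicative helicase, was lower in the same way, at -0.27 for Th1 (adjusted p = 0.869), -0.42 for M/M (adjusted p = 0.371) and -0.36 for Th2 cytokines (adjusted p = 0.743).

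Ncl, for the nucleolar protein nucleolin, had the lowest adjusted p of the listed genes with M/M cytokines. Its signal was 977, 1094 and 928 with M/M cytokines and 714, 538 and 452 in control cultures (log2 fold change 0.84, SE 0.23, adjusted p = 0.145, and 0.41 after centring). Odc1, the first enzyme of polyamine synthesis and a known target of Myc, had 668, 373 and 848 with M/M cytokines and 607, 219.7 and 451 in control cultures (0.61, adjusted p = 0.202, and 0.18 after centring). Mdm2, the ubiquitin ligase of p53, was at 0.64 with M/M (adjusted p = 0.233) and 0.38 with Th1 cytokines (adjusted p = 0.857), or 0.21 and 0.22 after centring. With Th1 cytokines Ncl (0.38) and Rpa3 (0.40), a subunit of the single-strand DNA binding complex, were higher in 3 of 3 experiments, and Pola1 (-1.02), of DNA polymerase alpha, was lower at signals of 9.06 or less. Of all probe sets, 14% were higher and 5.72% lower with Th1 cytokines in 3 of 3 experiments. The Th1 signals of Ncl were 721, 1127 and 473, so it was far above control only in experiment 2. Prim2, of the primase, was at -0.10 with M/M cytokines. With Th2 cytokines Cdkn2b (0.78, adjusted p = 0.715), Top2b (0.81) and E2f5 (0.82) were higher in 3 of 3 experiments and Pold1 (-0.25), of DNA polymerase delta, was lower. Of all probe sets, 25% were higher and 6.46% lower with Th2 cytokines in 3 of 3 experiments.

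Variation between experiments was larger than that between mixtures for most members. In 20 of the 24 probe sets the means of the 3 experiments spanned a wider range than the means of the 4 groups, and in 19 after centring. This count was not made over all probe sets, so it cannot be called particular to the members. The uncentred ranges also hold the differences in array brightness. The group means include the arrays of experiment 3, which go against their labels. For Cdk4, for example, the experiment means spanned a log2 range of 0.77 and the group means one of 0.16, or 0.34 and 0.28 after centring.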

How the data were processed

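Rat mixed glial RNA was measured on 12 Affymetrix RG-U34A arrays, 4 groups of 3. The deposited intensity of each probe set is a linear signal made by the authors with dChip (version 1.2), and the settings of dChip and a scaling between arrays are not given in the sources used here. Of 8799 probe sets, 59 control probe sets were left out. Of the 8740 tested, 7006 carry 1 gene symbol in the array annotation, 308 several and 1426 none. Signals below 0.1 (4 values) were set to 0.1, log2 was taken and arrays were not rescaled. An annotated symbol can be old, and probe sets with names ending in s_at, g_at or r_at are less specific by design.

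Groups came from the sample titles, whose shared code names the experiment. Arrays of 1 experiment deviated together from their groups (18 correlations across probe sets, 0.439 to 0.708), whereas those of different experiments and groups gave -0.625 to 0.357 (36 correlations). Experiment therefore entered as a fixed block in 1 fit of all 12 arrays (limma 3.58.1 in R 4.3.3). The prior of the variance was allowed to depend on brightness, which gave 6.94 prior beside 6 residual degrees of freedom. Two-sided p values were adjusted (Benjamini-Hochberg, all 8740 probe sets) and called under 0.05. Log2 fold changes are means of the within-experiment differences. The script was tested on simulated data. The methods' screen takes changes of more than 2-fold with an analysis of variance p under 0.2.

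The members were given by symbol, and no signal was used to pick them. Earlier results of these data were nevertheless known when the members, gene lists, markers and tests were chosen. All member probe sets are named. Listed genes were counted by their brightest probe set, and the text names up to 3 each way per mixture, those with the smallest unadjusted p among genes moved alike in 3 of 3 experiments. Promoters are RefSeq sequences of GRCr8. Alternatives were centring, quantile normalization, no or a random replicate block, an offset of 16, a filter on the dimmest 25 percent, no variance trend, the methods' screen and analysis of variance, and each array or experiment left out. Centring without experiment 3, and the counts of the lists between mixtures, were added after seeing the data.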

Additional observations from a re-analysis of the deposited data

How the results depend on the processing

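No member probe set was called under any of the limma alternatives. Over 1221 member values against control in 23 alternatives, 192 changed sign, among them 25 of 72 with centring, 21 of 72 with quantile normalization, 33 of 72 with centring without experiment 3 and 15 of 72 without experiment 3. None did with no replicate block, a random replicate block, no variance trend or without the dimmest 25 percent. The methods' screen took 2 of the 24 member probe sets for M/M cytokines, which the adjusted test did not. Its counts over all 8740 probe sets are given in the next paragraph. The median of the members against control was -0.09 after centring, 0 after quantile normalization and -0.11 after centring without experiment 3 for M/M cytokines, against 0.34. For Th2 cytokines it was -0.16, -0.14 and -0.27, against 0.05, and for Th1 cytokines it was -0.15 after centring without experiment 3, against 0.17. For M/M over Th2 cytokines it was 0.10 after centring and 0.13 after quantile normalization, against 0.32. With 1 array or experiment left out (centring without experiment 3 included), the medians lay between -0.15 and 0.29 for Th1, -0.11 and 0.50 for M/M and -0.27 and 0.21 for Th2 cytokines against control, and between 0.14 and 0.42 for M/M over Th2 cytokines. The Th2 median was -0.08 without the control array of experiment 2 and 0.21 without that of experiment 1.

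Counts over all probe sets moved more. Without the replicate block 0 probe sets were called for M/M and for Th2 cytokines, against 23 and 1 with experiment as a block. Pairing by experiment thus changed those counts, and it changed no call of a member. Centring, quantile normalization, no variance trend and the analysis of variance after Benjamini-Hochberg each gave 0 for M/M and 0 for Th2 cytokines, and the offset of 16 gave 14 for M/M cytokines. The methods' screen gave 242, 596 and 299 for Th1, M/M and Th2 cytokines against control, 167 for Th1 over M/M, 153 for Th1 over Th2 and 242 for M/M over Th2 cytokines. The 2 of 24 members that it took for M/M cytokines thus stand beside 596 of all 8740 probe sets. With centring and without experiment 3 the counts were 120, 120 and 0 against control, and 9, 90 and 52 between mixtures in the same order. With the same omissions, the counts ranged over 0 to 120 for Th1 (58 without experiment 3, 82 without its array labelled Th1), 0 to 120 for M/M (70 without experiment 1), 0 to 3 for Th2 cytokines, 0 to 9 for Th1 over M/M, 0 to 90 for Th1 over Th2 (41 without experiment 3) and 0 to 52 for M/M over Th2 cytokines. A lone group left with 2 arrays was assumed to vary like the others, and the cause of these shifts was not tested.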
